A study of Homo sapiens with 6 samples.

Results

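A group of 9 regulators of the basic helix-loop-helix network, of 63677 genes in the count table, was followed in RPMI8226, an established line of human multiple myeloma labelled as wild type. They are LYL1, LMO2, the inhibitor genes ID1, ID2 and ID3, the E-protein genes TCF3, TCF4 and TCF12, and HES1. LYL1 was chosen by its measured fall in the same comparison that is described here, and the other 8 genes were selected for their known relation to it after results of these data had been seen. The values below are therefore a description of these genes. Each gene was found by matching its symbol to the Ensembl identifier on a primary chromosome, and all 9 had a row.

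The cells were exposed for 6 hr to 100 nM GST-PTR1, in which a domain of HAPLN1, a protein of the extracellular matrix, is joined to glutathione-S-transferase, or to 100 nM GST, the fusion partner alone. Both proteins had been purified from bacteria, and the cells came from 1 line. Each treatment had 3 biological replicates, 6 libraries in all, and RNA-Seq reads were counted per gene. The totals were 15202503, 20077280 and 23453473 counts with GST and 22874133, 28837431 and 44688737 with GST-PTR1, and values are given throughout in this order of increasing total within each treatment. CPM (counts per 1000000 counts) was computed on totals scaled with TMM factors, and differences were tested with edgeR (quasi-likelihood) across the whole table. An adjusted p under 0.05 was the threshold, and log2 fold changes are given ± their standard error. In bulk RNA, fewer cells of a type and less RNA per cell cannot be told apart.

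Basic helix-loop-helix (bHLH) transcription factors bind DNA as dimers at a short motif called the E-box. The widely expressed E proteins, encoded by TCF3, TCF4 and TCF12, pair with themselves or with tissue-restricted partners such as TAL1 and LYL1, and in blood cells these dimers are bridged to GATA factors by the LIM-domain protein LMO2 and its partner LDB1. ID proteins have the dimerisation helices but no DNA-binding region, so an E protein held by an ID protein cannot bind an E-box. HES1 is a bHLH repressor downstream of Notch that binds the related N-box. E proteins are needed for B-cell development and act in antibody-secreting cells, and LYL1 and LMO2 are known as oncogenes of T-cell leukemia.

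The sequence before the start of LYL1, ID2 and ID3 is shown because these are the genes whose counts passed the threshold. The windows are RefSeq promoters on build GRCh38.p14, and the 250 bases before the start are printed 5′ to 3′ on the gene's own strand. They lie at chr19:13102859-13103108 (minus strand) for LYL1, chr2:8681806-8682055 (plus strand) for ID2 and chr1:23559502-23559751 (minus strand) for ID3. Capitals mark every match, on either strand, of the E-box CANNTG, the N-box CACNAG, the SMAD palindrome GTCTAGAC, the GC box GGGCGG and the NF-κB consensus.
LYL1: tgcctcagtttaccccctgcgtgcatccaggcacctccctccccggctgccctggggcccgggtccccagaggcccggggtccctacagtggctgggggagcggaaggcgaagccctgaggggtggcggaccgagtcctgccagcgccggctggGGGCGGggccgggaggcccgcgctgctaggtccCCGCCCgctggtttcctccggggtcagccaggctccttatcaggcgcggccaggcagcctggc
ID2: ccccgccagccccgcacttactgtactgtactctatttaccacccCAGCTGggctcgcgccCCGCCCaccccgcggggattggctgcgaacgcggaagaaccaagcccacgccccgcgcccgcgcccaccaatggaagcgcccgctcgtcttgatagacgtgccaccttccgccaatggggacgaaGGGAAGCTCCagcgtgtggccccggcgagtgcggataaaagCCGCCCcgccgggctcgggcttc
ID3: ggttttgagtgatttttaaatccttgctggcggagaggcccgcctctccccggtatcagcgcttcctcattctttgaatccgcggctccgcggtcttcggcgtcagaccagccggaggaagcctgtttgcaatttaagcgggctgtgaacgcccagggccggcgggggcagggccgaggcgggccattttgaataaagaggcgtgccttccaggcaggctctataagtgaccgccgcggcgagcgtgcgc
In ID2 the E-box CAGCTG began 205 bases before the start, the NF-κB match GGGAAGCTCC began 64 bases before it, and GC boxes began at 189 and 23 bases before it. LYL1 held GC boxes that began 96 and 63 bases before the start, and no other match. ID3 held no match. No match overlapped another. These letters are common. Over the full windows of 300 bases, which reach 50 bases past the start, 68.7% of all 35116 human windows held an E-box, 45.0% a GC box, 38% an N-box, 11.3% an NF-κB match and 0.202% the SMAD palindrome. The GC share was 74.7% for LYL1, 69.0% for ID2 and 59.7% for ID3, beside a median of 58.7% for all windows. A window was available for 8 of the 9 genes, 21 windows in all, and that of HES1 held 4 N-boxes, where 1.51% of all windows held at least 3. An NF-κB match also lay in the window of HES1 and in some windows of TCF4 and TCF12, so ID2 was not alone in holding it. A match is a string of letters and no evidence of binding.

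Of the 9 genes, 7 passed edgeR's expression filter and were tested, and LMO2 and HES1 did not pass it. ID2 rose with GST-PTR1, LYL1 and ID3 fell, and TCF3, TCF4, TCF12 and ID1 did not pass the threshold. The median log2 fold change of the 7 tested was -0.18, and that of all 16926 genes tested was 0.01. Of all genes tested, 20.6% passed the threshold, 9.15% higher and 11.4% lower with GST-PTR1. Since LYL1 was chosen on this comparison, nothing is read from the 3 calls among these genes. GST and GST-PTR1 libraries were fully separated for LYL1, ID1, ID2 and ID3, 4 of the 7 genes tested, and for 40.4% of all genes tested. Nothing is read from this count either. ID2, LYL1 and ID3 passed the threshold under each of 11 other settings of scaling, test, filter and libraries used. These genes were chosen with results known and lay well under the threshold in the main test, so nothing is read from this. The whole-table count, which also holds genes close to the threshold, moved. It went from 3486 to 2288 without the GST library of 23453473 counts and to 2288 without the GST-PTR1 library of 28837431, and when counts were scaled by library totals the split went from 1549 higher and 1937 lower to 927 and 3788. That scaling shifted the median over all genes by -0.20 on the log2 scale.

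**Figure D1:**
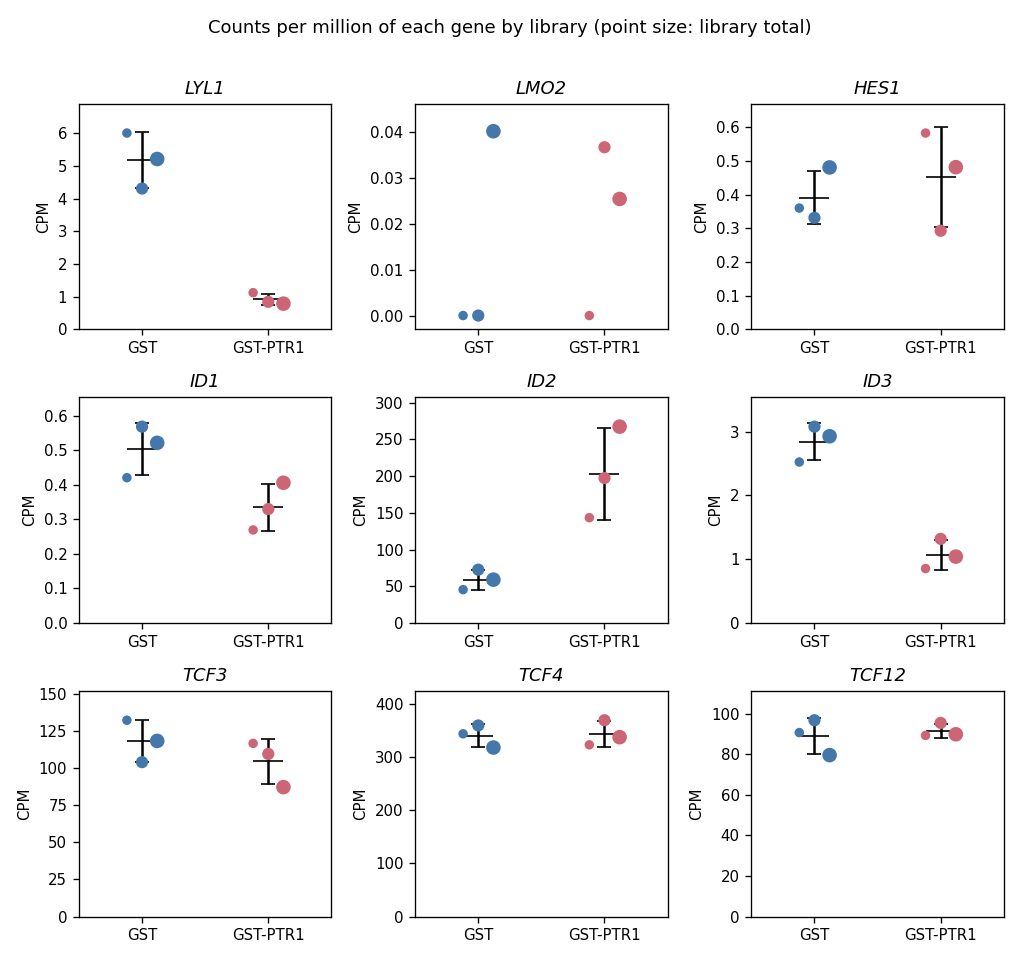
Level of each gene in CPM on TMM-scaled totals (vertical axis, 1 scale per gene) in the 3 GST libraries (blue) and the 3 GST-PTR1 libraries (red), with larger points for larger library totals and, except for LMO2, the mean and SD in black. The LYL1 points lie between 4.31 and 6.00 CPM with GST and between 0.786 and 1.12 with GST-PTR1, and the ID2 points between 45.4 and 72.6 and between 143 and 267.

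LYL1 encodes a bHLH factor related to TAL1 that needs an E-protein partner. The gene (ENSG00000104903) lies on the minus strand of chromosome 19 from 13209847 to 13213975 in GRCh37, the build of the count table. Its raw counts were 100, 91 and 130 with GST and 25, 23 and 31 with GST-PTR1. Scaled, these were 6.00, 4.31 and 5.21 CPM with GST and 1.12, 0.842 and 0.786 CPM with GST-PTR1. Every GST library was above every GST-PTR1 library, and the lowest GST value was well clear of the highest GST-PTR1 value. The mean went from 5.17 ± 0.849 to 0.916 ± 0.180 CPM (SD, n = 3 each), 5.71-fold lower. On the log2 scale this was a change of -2.51 ± 0.23, with an adjusted p of 2.08e-05 in edgeR's test. Since LYL1 was chosen by this fall, its p, its rank and the separation of its libraries are descriptions and no independent support. LYL1 ranked 16 by size of fold change among the 1937 genes that fell, and 15 of all genes tested had a lower fold change. Leaving out each library in turn gave log2 fold changes from -2.66 to -2.38. LYL1 was a gene of low level in the GST control, with 33.7% of tested genes at or below its mean CPM with GST. No exon base of LYL1 is shared with another gene in the annotation.

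LMO2 (ENSG00000135363, chromosome 11 from 33880122 to 33913836 in GRCh37) encodes the LIM-domain bridge of the complexes that hold TAL1 or LYL1. It had 0, 0 and 1 counts with GST and 0, 1 and 1 with GST-PTR1. All libraries were under the limit of 3 counts, which is 0.0761 to 0.180 CPM at these depths, so neither a level nor a difference was detectable. These floors cover counting error only.

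The E-protein genes were all well expressed, and none passed the threshold. TCF3 (ENSG00000071564, chromosome 19 from 1609291 to 1652604), which encodes E12 and E47, had 132, 104 and 118 CPM with GST and 116, 109 and 87.0 CPM with GST-PTR1. The lowest value was in the largest GST-PTR1 library, and the treatments overlapped. On the log2 scale the change was -0.18 ± 0.13 (adjusted p = 0.359, edgeR). TCF4 (ENSG00000196628, chromosome 18 from 52889562 to 53332018), which encodes E2-2, an E protein known for plasmacytoid dendritic cells and B cells, had 344, 360 and 318 CPM with GST and 323, 370 and 338 CPM with GST-PTR1. The lowest value was in a GST library and the highest in a GST-PTR1 library, the treatments overlapped, and the log2 fold change was 0.01 ± 0.11 (adjusted p = 0.947, edgeR). TCF12 (ENSG00000140262, chromosome 15 from 57210821 to 57591479), which encodes HEB, had 90.7, 96.7 and 79.6 CPM with GST and 89.2, 95.4 and 89.8 CPM with GST-PTR1. The GST-PTR1 values all lay within the GST range, with a log2 fold change of 0.04 ± 0.10 (adjusted p = 0.811, edgeR). The sign for TCF4 and TCF12 depended on the scaling, and with library totals their log2 fold changes were -0.18 and -0.15. Gene counts do not separate isoforms, so E12 and E47, or the long and short forms of E2-2 and HEB, were not resolved.

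ID2 was the ID gene of highest level and rose, as none of the other 6 genes tested did. ID2 (ENSG00000115738, plus strand of chromosome 2 from 8818975 to 8824583 in GRCh37) opposes E-protein activity in many lymphoid lineages. Its raw counts were 756, 1533 and 1471 with GST and 3196, 5392 and 10546 with GST-PTR1, or 45.4, 72.6 and 59.0 CPM and 143, 197 and 267 CPM. Each GST-PTR1 library was above each GST library, and within GST-PTR1 the order of CPM followed the order of library totals. The part of library size in the result was not tested. The mean went from 59.0 ± 13.6 to 203 ± 62.2 CPM (SD, n = 3 each), a 3.44-fold rise, or 1.78 ± 0.22 on the log2 scale (adjusted p = 0.000243, edgeR). Of all genes tested, 312 had a higher fold change. Without the GST-PTR1 library of 44688737 counts the log2 fold change was 1.54, the lowest of the 11 settings, and the highest was 1.98. The antisense gene ID2-AS1 covers 1.72% of its exon bases, and reads were counted by strand.

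ID3 and ID1 had lower values with GST-PTR1, and ID3 passed the threshold. ID3 (ENSG00000117318, minus strand of chromosome 1 from 23884409 to 23886285), an inhibitor known from B-cell lymphoma where it restrains TCF3, had 42, 65 and 73 counts with GST and 19, 36 and 41 with GST-PTR1. Scaled, these were 2.52, 3.08 and 2.93 CPM and 0.852, 1.32 and 1.04 CPM. The treatments did not overlap, although the raw count of the smallest GST library was within 1 count of that of the largest GST-PTR1 library. ID3 fell from 2.84 ± 0.287 to 1.07 ± 0.234 CPM (SD, n = 3 each), 2.64-fold, which was -1.40 ± 0.23 on the log2 scale (adjusted p = 0.00154, edgeR), and 253 of all genes tested had a lower fold change. ID1 (ENSG00000125968, chromosome 20 from 30193086 to 30194318), a target of BMP signaling in many cells, had 7, 12 and 13 counts with GST and 6, 9 and 16 with GST-PTR1. At 0.420, 0.568 and 0.521 CPM against 0.269, 0.329 and 0.406 CPM the libraries were separated only narrowly. The log2 fold change of -0.56 ± 0.34 (adjusted p = 0.27, edgeR) did not pass the threshold. Few reads were counted, and their part in this was not tested. ID4, the remaining ID gene, had 0 counts in all 6 libraries.

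HES1 (ENSG00000114315, chromosome 3 from 193853934 to 193856521) had 6, 7 and 12 counts with GST and 13, 8 and 19 with GST-PTR1. The corresponding 0.360, 0.331 and 0.481 CPM with GST and 0.583, 0.293 and 0.482 CPM with GST-PTR1 overlapped. HES1 was under the expression filter and so was not tested. Where the filter was lowered to at least 1 count in any library, its log2 fold change was 0.21 ± 0.45 (adjusted p = 0.805, edgeR).

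Levels of different genes were compared per length, as RPKM (counts per 1000 bases of exon and 1000000 counts) on library totals. The order between genes rests on the deposited exon lengths, 2205 bases for ID2 and 22377 for TCF4, and no other lengths were tried. In CPM, which takes no account of length, TCF4 was above ID2, with means of 341 and 59.0 with GST. With GST-PTR1 these means were 344 and 203 CPM. With GST the order by mean was ID2 at 28.5 ± 6.04 RPKM, TCF3 at 20.9 ± 2.92, TCF4 at 16.3 ± 1.01, TCF12 at 10.1 ± 0.983, LYL1 at 1.78 ± 0.328, ID3 at 1.69 ± 0.137, ID1 at 0.436 ± 0.0569 and HES1 at 0.203 ± 0.0408 (SD, n = 3). Between neighbours, ID2 and TCF3 overlapped and so did LYL1 and ID3, and the others did not. With GST-PTR1, ID2 stood alone at the top at 85.1 ± 21.8 RPKM, 5.26 times the mean of TCF3 at 16.2 ± 3.13. TCF4 followed at 14.4 ± 1.19 and overlapped TCF3, and TCF12 was at 9.06 ± 0.603. ID3 at 0.556 ± 0.123 RPKM was now above LYL1 at 0.276 ± 0.0664 without overlap. LYL1 overlapped ID1 at 0.252 ± 0.0388, and ID1 overlapped HES1 at 0.205 ± 0.0705.

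**Figure D2:**
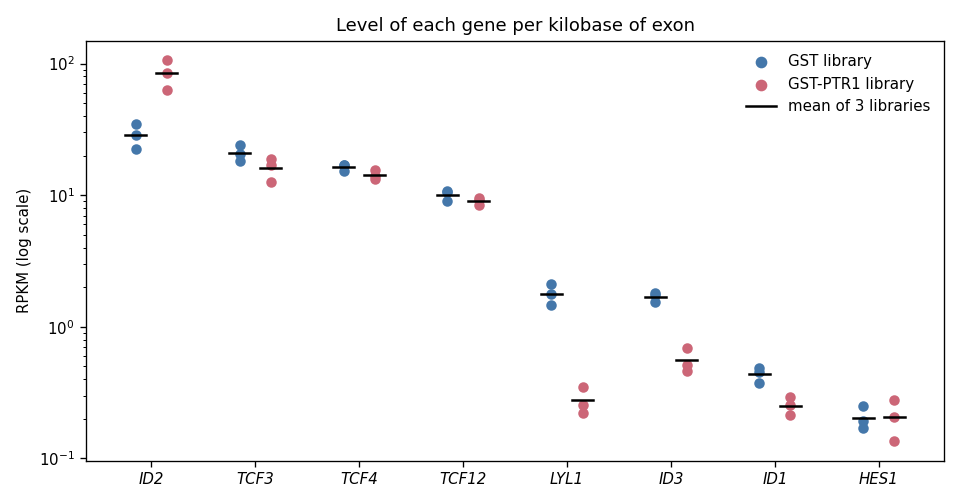
Level of 8 of the genes in RPKM (vertical axis, log scale) in each GST library (blue) and GST-PTR1 library (red), with bars at the mean of 3, ordered by the GST mean; LMO2 is left out because some libraries had 0 counts. ID2 moves from a mean of 28.5 to 85.1 RPKM and LYL1 from 1.78 to 0.276, while the E-protein genes stay between 8.39 and 23.9 RPKM.

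The ratio of inhibitor to E-protein RPKM was higher with GST-PTR1. The summed RPKM of ID1, ID2 and ID3 was 24.5, 36.9 and 30.6 with GST and 64.0, 85.7 and 108 with GST-PTR1. That of TCF3, TCF4 and TCF12 was 51.2, 45.7 and 44.8 with GST and 42.0, 42.3 and 34.4 with GST-PTR1, on the library totals that lower GST-PTR1 values of the median gene. The scaling cancels in their ratio, which was 0.478, 0.807 and 0.683 with GST and 1.52, 2.03 and 3.13 with GST-PTR1. The treatments did not overlap. Where the ratio stands relative to 1 rests on the deposited exon lengths, which join the exons of all transcripts of a gene (22377 bases for TCF4), and no other lengths were tried. The mean ratio was 0.656 ± 0.167 with GST and 2.23 ± 0.824 with GST-PTR1 (SD, n = 3 each), and no p is given for a sum over genes chosen with results known. As for ID2 alone, the ratio within GST-PTR1 followed the order of library totals.

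ID2 made up nearly all of the ID sum. Its share was 92.2% to 93.8% with GST and 98.9% to 99.3% with GST-PTR1. The share of ID3 went from between 4.88% and 6.28% to between 0.474% and 0.810%, and that of ID1 from between 1.31% and 1.53% to between 0.269% and 0.332%. The makeup of the E-protein sum overlapped between treatments. TCF3 made up 39.4% to 46.6% of it with GST and 36.9% to 44.6% with GST-PTR1, TCF4 32.9% to 37.0% and 33.5% to 38.7%, and TCF12 19.99% to 23.6% and 21.9% to 24.4%. These are transcript levels, and protein was not measured.

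**Figure D3:**
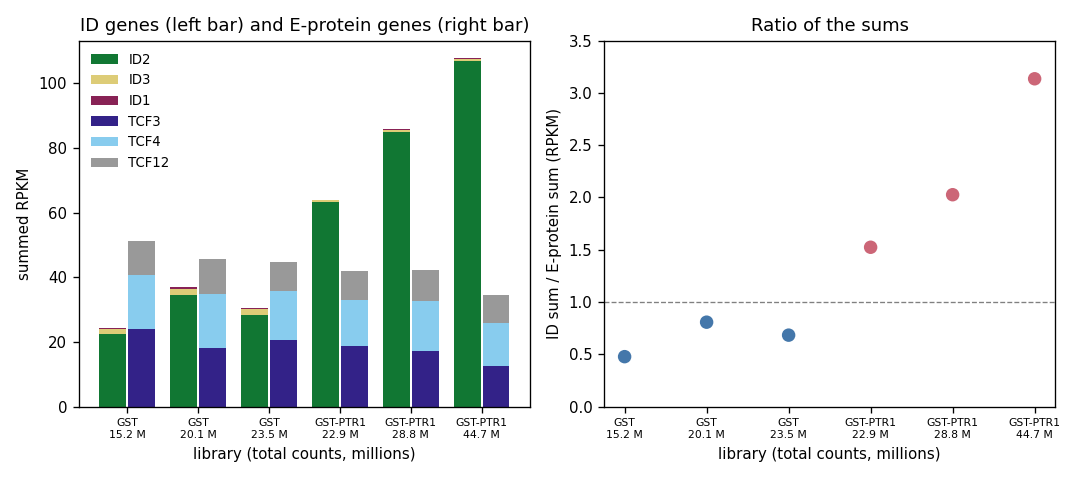
Left, summed RPKM per library of the ID genes (left bar) and the E-protein genes (right bar), stacked by gene. Right, the ratio of the sums for GST (blue) and GST-PTR1 (red) libraries with a dashed line at 1; GST libraries lie between 0.478 and 0.807 and GST-PTR1 libraries between 1.52 and 3.13.

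Other genes of the network were taken from 6 lists, written with earlier results known, so nothing is read from their shares past the threshold. The first held partners in the TAL1 and LMO complex. Of 22 genes, 13 were tested, 1 was higher and 2 were lower with GST-PTR1, with a median log2 fold change of -0.14. That is 23.1% of the genes tested, near the 20.6% of all genes. RUNX1, a DNA-binding partner of the complex, rose from 30.9 ± 5.51 to 50.5 ± 6.01 CPM (log2 fold change 0.71, adjusted p = 0.00597, edgeR). SPI1, the myeloid and B-cell factor PU.1, fell from 20.1 ± 2.25 to 13.5 ± 1.30 CPM (log2 fold change -0.58, adjusted p = 0.0107), and LDB1 fell from 49.1 ± 7.79 to 36.1 ± 4.41 CPM (log2 fold change -0.44, adjusted p = 0.0455). TAL1 had at most 1 count in any library and was not tested. Without the GST-PTR1 library of 28837431 counts only 1 gene of the list passed the threshold, and with library totals 1 was higher and 5 were lower.

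Other bHLH factors, most of them tissue-restricted and possible partners of E proteins, were mostly silent. Of 33 listed genes 32 were in the table, 16 had 0 counts in every library, and 8 were tested, of which 4 rose and 0 fell, with a median log2 fold change of 0.43. The share past the threshold was 50%, beside 20.6% of all genes, over only 8 genes tested. OLIG1, known from oligodendrocytes, had 7.98, 6.63 and 8.5 CPM with GST and 30.9, 39.2 and 39.2 CPM with GST-PTR1, without overlap (log2 fold change 2.24 ± 0.15, adjusted p = 1.63e-06, edgeR). Its neighbour in function OLIG2 was much lower, with 9 to 19 counts with GST and 53 to 63 with GST-PTR1 (log2 fold change 1.54, adjusted p = 0.00605). BHLHE40, a bHLH repressor of the clock and of immune cells, rose from 21.3 ± 7.75 to 43.8 ± 19.1 CPM (log2 fold change 1.05, adjusted p = 0.0307). BHLHE40 had 30.0, 18.6 and 15.2 CPM with GST and 65.8, 34.7 and 31.0 CPM with GST-PTR1, so the treatments were separated only narrowly. The fourth was its paralog BHLHE41, named after its values were seen, with a log2 fold change of 0.73. BHLHA15, or MIST1, which serves secretion in plasma cells, had 20.6, 9.32 and 11.7 CPM with GST and 10.5, 7.43 and 7.53 with GST-PTR1. These overlapped and did not pass the threshold (log2 fold change -0.71, adjusted p = 0.0808). With library totals 3 genes of the list were higher and 2 lower, and with a filter of at least 1 count in any library 6 were higher and 2 lower.

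Among cofactors of E proteins and regulators of ID stability, 13 of 15 genes were tested, 0 were higher and 2 were lower, with a median log2 fold change of -0.15. The share past the threshold, 15.4%, was below the 20.6% of all genes. CBFA2T2, a corepressor of the ETO family that binds E proteins, fell from 30.9 ± 4.69 to 20.2 ± 2.51 CPM (log2 fold change -0.61, adjusted p = 0.0118, edgeR). KAT2B, the acetyltransferase PCAF, fell from 24.7 ± 0.941 to 17.8 ± 0.304 CPM (log2 fold change -0.47, adjusted p = 0.0101). With library totals 5 genes of the list were lower.

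The HES and HEY family, its corepressors and the Notch pathway formed the next list. Of 36 HES, HEY and Notch pathway genes 29 were tested, 5 were higher and 6 lower, with a median log2 fold change of 0.02, and with library totals 3 were higher and 10 lower. In the main test 37.9% of the genes tested passed, beside 20.6% of all genes. TLE4, a Groucho corepressor that HES proteins recruit, rose from 5.60 ± 1.05 to 34.7 ± 3.39 CPM (log2 fold change 2.63, adjusted p = 7.04e-07, edgeR). MAML2, a coactivator of Notch, rose from 48.0 ± 6.52 to 124 ± 3.61 CPM (log2 fold change 1.37, adjusted p = 1.15e-05), and HES6, which opposes HES1, fell from 3.06 ± 0.535 to 1.35 ± 0.161 CPM (log2 fold change -1.18, adjusted p = 0.00362). HEY1, another Notch target, had a log2 fold change of 0.37 and did not pass the threshold (adjusted p = 0.281).

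BMP and TGF-beta signaling controls ID genes in many cells. Of its 34 listed genes 26 were tested, 4 were higher and 2 lower, with a median log2 fold change of -0.02. The share past the threshold, 23.1%, was near the 20.6% of all genes. ZNF423, a partner of SMAD proteins in BMP signaling, rose from 4.78 ± 0.485 to 11 ± 2.25 CPM (log2 fold change 1.20, adjusted p = 0.000924, edgeR). The receptors TGFBR1 (log2 fold change 0.74, adjusted p = 0.00912) and TGFBR3 (log2 fold change 0.71, adjusted p = 0.0299) also rose. The genes that fell, named after their values were seen, were the BMP receptor BMPR2 (log2 fold change -0.70, adjusted p = 0.00714) and the ligand BMP7 (log2 fold change -0.56, adjusted p = 0.00273). Without the GST library of 23453473 counts, 3 genes of the list passed in place of 6, and with library totals 2 were higher and 3 lower.

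The last list held genes taken as E-protein targets in the B lineage. Of 30 genes 24 were tested, 11 were higher and 1 was lower, with a median log2 fold change of 0.53, beside 0.01 for all genes tested. The share past the threshold was 50%, and over all genes it was 20.6%, made up of 9.15% higher and 11.4% lower. Since the list was written with earlier results of these data known, nothing is read from this share. The largest changes were in SOCS3 with a log2 fold change of 7.44, SOCS1 with 3.47 and CCR7 with 4.44 (adjusted p = 1.09e-09, 2.7e-06 and 7.78e-07, edgeR). SOCS3 and SOCS1 are feedback inhibitors of cytokine signaling and CCR7 is a chemokine receptor, and all are also known targets of cytokine pathways. CCR7 had 4, 7 and 8 counts with GST and 130, 220 and 239 with GST-PTR1. The gene that fell was XBP1, the secretory factor of plasma cells, named after its values were seen (log2 fold change -0.47). With library totals 11 were higher and 3 lower. Whether ID or E-protein levels bear on these genes was not tested.

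**Figure D4:**
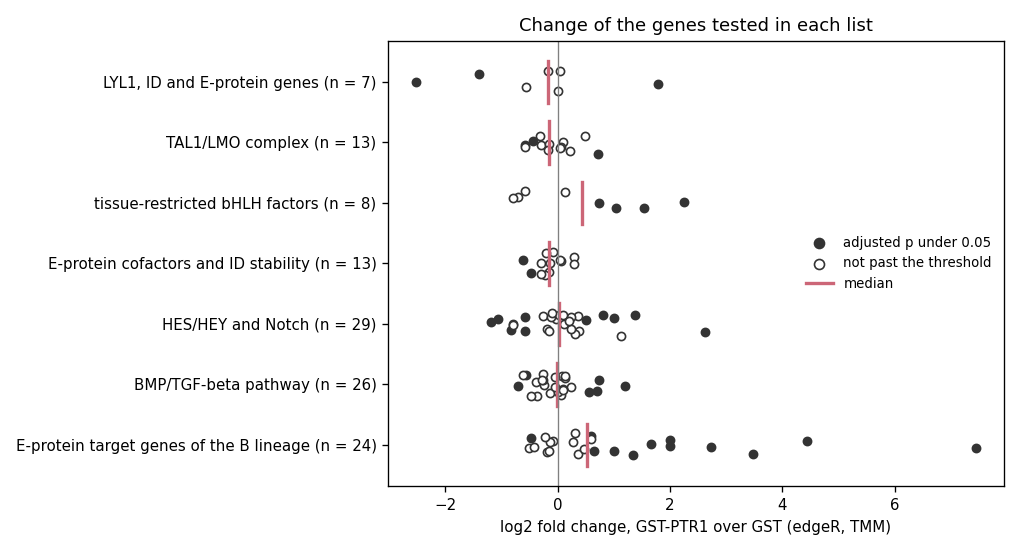
Log2 fold change of GST-PTR1 over GST (horizontal axis, edgeR with TMM factors) for the 7 tested genes of the network (top row) and the tested genes of 6 related lists, filled where the adjusted p was under 0.05, with red bars at the medians. LYL1 at -2.51 is the lowest point in the plot, and the B-lineage targets reach 7.44.

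The genes most like each regulator over the 6 libraries were found by the Euclidean distance between centred log2 CPM values. The treatment difference enters this distance, and a prior count of 2 draws genes of few counts together. ADGRG1, an adhesion G-protein-coupled receptor, was nearest to LYL1 (distance 0.243), with 18.1, 14.8 and 14.2 CPM with GST and 3.5, 2.78 and 2.41 CPM with GST-PTR1. In both genes the library of smallest total had the highest value in each treatment. The next were ENSG00000261655 (0.338) and ENSG00000204513 (0.443), for which no symbol was matched, a further gene without one, and PRAMEF9 (0.507). PRAMEF9 belongs to a family of near-identical copies, and reads that match several copies were not counted, so its counts are uncertain. In the order of the count table, ENSG00000204513 and the further gene without a symbol lie among PRAMEF genes. Their counts may be uncertain in the same way, and they may not be independent of PRAMEF9.

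Nearest to ID2 were RABGAP1L-DT, a divergent transcript (distance 0.253), FAS, the death receptor (0.324), and TFEC, a transcription factor of the MiT family (0.371). FAS had 12.4, 20.9 and 17.7 CPM with GST and 50.6, 62.8 and 72.1 CPM with GST-PTR1, so its GST-PTR1 values followed library totals as those of ID2 did. MEI1 (0.165), TUFT1 (0.168) and USP51 (0.168) were nearest to ID3, and CASP9 (0.0440), DNAJC9-AS1 (0.139) and CFC1 (0.147) to ID1. For the E-protein genes the nearest were STRN3, ZNF496 and SCRIB for TCF3 (0.0776 to 0.0871), PRKAA1, ZNF33A and IFNAR1 for TCF4 (0.0524 to 0.0689), and MKLN1, SMARCAD1 and IFNAR1 for TCF12 (0.0463 to 0.0672). As with the E-protein genes themselves, none of these passed the threshold.

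The label of the cells was checked against markers. All 9 plasma cell markers were expressed, with a summed level of 4071 to 4781 CPM with GST and 3951 to 4901 CPM with GST-PTR1. Most of this sum was JCHAIN and MZB1, with means of 2168.5 and 886.66 CPM with GST. Neither passed the threshold, and the sum says little of the others. Of the 9, 3 were higher (IRF4, PRDM1 and SLAMF7) and 3 lower (SDC1, TNFRSF17 and XBP1), named after their values were seen. Their log2 fold changes ran from -1.41 (TNFRSF17) to 1.52 (SLAMF7), and SDC1 fell from 375 to 183 CPM. Over all genes tested, 20.6% passed the threshold. Of 5 T-cell markers 4 were in the table, and these reached at most 0.120 CPM in sum, with CD2 at 0. The 6 myeloid markers summed to 60.6 to 63.5 CPM with GST and 53.9 to 57.8 CPM with GST-PTR1, nearly all from CD33, and MPO was at 0. Of the 3 myeloid markers tested, 1 was higher and 0 were lower. It was FCGR1A, with 7, 8 and 4 counts with GST and 17, 18 and 29 with GST-PTR1 (log2 fold change 1.22, adjusted p = 0.0425, edgeR). Those of erythroid cells and megakaryocytes summed to 2.41 to 3.03 and 1.84 to 3.32 CPM with PF4 at 0, those of endothelial cells to at most 0.160 CPM with CDH5 at 0, and those of stromal cells to 0.240 to 0.521 and 0.380 to 0.404 CPM with COL1A2, COL3A1 and DCN at 0.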

How the data were processed

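RNA-Seq was performed on 3 GST and 3 GST-PTR1 samples. The file deposited by the authors holds raw read counts for each gene, made with featureCounts 1.5.0-p1 on the Ensembl release 75 annotation of GRCh37, counted by strand and without normalization, with the exon length of each gene. Multi-mapping reads, and those shared by genes of 1 strand, had not been counted. The aligner's settings are not given in the sources used here. Libraries were assigned to treatments by column name, and are named by total because column numbers differ from the samples' replicate numbers. Smallest chi-square per gene between libraries of a treatment was 8.38, more than counting noise, so none was taken as a repeated sequencing of another. This value cannot tell separate cultures from separate preparations of the same RNA. That the replicates are biological is taken from the paper.

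Differences were tested on the deposited counts in R 4.3.3 with edgeR 4.0.16 (TMM factors, filterByExpr, glmQLFit and glmQLFTest, Benjamini-Hochberg adjustment over 16926 genes). Standard errors were derived from the quasi-likelihood F statistic. An exact permutation test of 1 gene cannot go below p = 0.1 with 3 against 3. RPKM used library totals and deposited exon lengths. Promoters were taken from RefSeq and searched in Python 3.11.15. Scripts were tested on simulated data.

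The 9 genes, the lists and the tests were chosen with earlier results of these data known, and the lists were written from general knowledge. Named are the 9 genes, the 3 genes of each list past the threshold with the largest fold changes, TAL1, LDB1, BHLHA15, ID4 and HEY1, and the 5 genes nearest to LYL1 and 3 nearest to each other tested gene, where unnamed identifiers beyond 2 are not printed. Alternatives were library totals or DESeq2 size factors, the test of DESeq2 1.42.0, a filter of 1 count in any or 10 in every library, leaving out each library, and a 2-fold threshold.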

Additional observations from a re-analysis of the deposited data

How the results depend on the processing

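LYL1, ID2 and ID3 kept their direction and passed the threshold under all 11 alternatives, with log2 fold changes from -2.71 to -2.38, from 1.54 to 1.98 and from -1.60 to -1.29. TCF3, TCF4, TCF12 and ID1 did not pass it under any alternative in which they were tested. The sign reversed for TCF4 with library totals (-0.18) and when libraries were left out (-0.039 to 0.056), and for TCF12 with library totals (-0.15) and when libraries were left out (-0.033 to 0.11). Leaving out each library gave 2288 to 3349 genes past the threshold over the whole table, 1 to 4 in the TAL1 and LMO list and 3 to 6 in the BMP and TGF-beta list. A 2-fold threshold left 1275 genes over the whole table, 0 in the TAL1 and LMO list, 0 among cofactors, 5 in the HES, HEY and Notch list and 1 in the BMP and TGF-beta list, by its construction. Library totals gave 6 genes in the TAL1 and LMO list and 5 cofactors. In the TAL1 and LMO list the DESeq2 test gave 5 and the filter of at least 1 count 6. That filter gave 8 in the list of other bHLH factors, 6 higher and 2 lower. The cause was not tested. With few counts, ID1, HES1 and LMO2 are limited by depth.

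The samples' replicate numbers could not serve for pairing, since the columns carry other numbers. In fits of the 4 libraries whose column numbers occur in both treatments, chosen after seeing the data, LYL1, ID2 and ID3 were the 3 genes called with and without that number as a replicate block, and of all genes 3318 passed with the block and 3638 without it.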

Other observations

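Further genes of the lists, named after their values were seen, moved in both directions within a family. Among the HES genes, HES4 rose from 5.72 ± 1.27 to 10.1 ± 2.31 CPM (SD, n = 3 each; log2 fold change 0.81, adjusted p = 0.0195, edgeR), and HES7 fell from 2.72 ± 0.686 to 1.52 ± 0.0935 CPM (log2 fold change -0.83, adjusted p = 0.0307). Among the Groucho corepressors, TLE3 rose from 124 ± 23 to 250 ± 29.0 CPM (log2 fold change 1.01), and TLE1 fell from 3.00 ± 0.206 to 1.74 ± 0.126 CPM (log2 fold change -0.78). The Notch ligand genes JAG1 and JAG2 both fell, each with a log2 fold change of -0.58.

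Transcription factor genes of the B-lineage list, picked here after their values were seen, also differed among themselves. BCL6, the germinal center repressor, went from 4.26, 3.22 and 2.97 CPM with GST to 20.7, 24.8 and 23.1 CPM with GST-PTR1 (log2 fold change 2.73), and PRDM1, the plasma cell factor known to oppose it, went from 67.8, 54.8 and 55.2 to 155, 160 and 137 CPM (log2 fold change 1.35). Both were higher in 3 of 3 GST-PTR1 libraries than in any GST library. LEF1 (log2 fold change 2.00), SPIB (2.00), IRF8 (1.67), IRF4 (0.65) and IKZF1 (0.59) rose as well. PAX5 (log2 fold change 0.36, adjusted p = 0.298, edgeR), FOXO1 (0.27, adjusted p = 0.295), IKZF3 (-0.14, adjusted p = 0.627), POU2AF1 (-0.20, adjusted p = 0.364) and GFI1 (-0.15, adjusted p = 0.57) did not pass the threshold, XBP1 fell (-0.47), and EBF1 had 0 counts in all 6 libraries. SPI1, from the TAL1 and LMO list, fell (-0.58).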
